A study of Mus musculus with 4 samples.

Results

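The MAP kinase phosphatases examined here were the products of 10 dual-specificity phosphatase genes, Dusp1, Dusp2, Dusp4, Dusp5, Dusp6, Dusp7, Dusp8, Dusp10, Dusp14 and Dusp16. Their members were all probe sets annotated to exactly 1 of these symbols, which gave 10 of the 18193 genes so annotated and 16 of the 45037 probe sets that were not manufacturer's controls. They were measured in HL-1 cells, a beating mouse atrial muscle line that came from an atrial tumour driven by a viral large T antigen, so all values describe a single proliferating line. In 2 samples the cells were driven electrically for 24 h at 300 beats per minute, 1.5 to 2 times the control rate per the labels, and in 2 control samples they beat on their own with no stimulation. All 4 samples were grown to confluence in the same supplemented medium, and each was hybridised to 1 Affymetrix array. The titles of the stimulated samples number them as experiments 1 and 2, while those of the controls give no such number. Whether 2 arrays of one condition came from different cultures is not in the labels. The p-values therefore measure the spread between these arrays, which may be partly technical or lie between experiments. No control was paced at its own rate, so the effect of rate and that of the current cannot be told apart.

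MAP kinases are switched on when a kinase above them adds phosphate to a threonine and a tyrosine of one short loop, and dual-specificity phosphatases switch them off by removing both. The family divides into nuclear enzymes whose genes are themselves induced within minutes of MAP kinase activation, cytoplasmic enzymes that prefer ERK, and enzymes that act mainly on the stress kinases JNK and p38. In heart muscle these kinases respond to load, stretch and hormones, and the phosphatases set how long each response lasts.

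The sequence before the start sites is shown first for 4 members, the called Dusp8 and the 3 nuclear members with groups that did not overlap. Dusp10 and Dusp16 also had a probe set with groups that did not overlap. Their windows held no CRE (the cyclic AMP response element) and no CArG box, and are not shown. The 4 windows are shown because sites for cyclic AMP response element (CRE) binding proteins and for serum response factor are known from some activity-induced genes. The Dusp2 window held neither. Whether any of the sites acts in these cells was not tested. Each line gives the 250 bases before the RefSeq start site on the gene's own strand (mouse build GRCm38.p6). Capitals mark the CRE (TGACGTCA) in Dusp8 and Dusp1, the CArG box of serum response factor in Dusp5 and the E-box (CACGTG) in Dusp2. The windows are chr7:142095285-142095534 on the minus strand for Dusp8, chr17:26508473-26508722 on the minus strand for Dusp1, chr19:53528895-53529144 on the plus strand for Dusp5 and chr2:127335909-127336158 on the plus strand for Dusp2.
Dusp8: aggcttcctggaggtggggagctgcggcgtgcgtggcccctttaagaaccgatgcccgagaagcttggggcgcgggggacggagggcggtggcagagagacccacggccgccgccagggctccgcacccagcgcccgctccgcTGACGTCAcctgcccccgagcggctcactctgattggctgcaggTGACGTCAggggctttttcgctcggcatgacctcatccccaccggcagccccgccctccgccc
Dusp1: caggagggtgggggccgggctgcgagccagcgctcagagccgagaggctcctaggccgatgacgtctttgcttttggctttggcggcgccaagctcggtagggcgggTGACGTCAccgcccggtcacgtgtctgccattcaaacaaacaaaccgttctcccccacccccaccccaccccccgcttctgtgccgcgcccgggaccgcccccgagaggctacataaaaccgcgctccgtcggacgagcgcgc
Dusp5: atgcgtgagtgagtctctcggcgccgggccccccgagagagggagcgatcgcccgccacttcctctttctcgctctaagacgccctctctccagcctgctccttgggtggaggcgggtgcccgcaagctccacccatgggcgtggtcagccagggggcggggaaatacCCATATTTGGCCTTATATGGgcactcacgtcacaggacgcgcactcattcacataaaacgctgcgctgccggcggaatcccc
Dusp2: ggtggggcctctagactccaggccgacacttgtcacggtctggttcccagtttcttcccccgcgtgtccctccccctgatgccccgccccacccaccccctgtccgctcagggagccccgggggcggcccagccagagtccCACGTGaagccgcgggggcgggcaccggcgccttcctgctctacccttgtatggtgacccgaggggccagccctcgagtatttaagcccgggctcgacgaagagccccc
Of the 10 genes, 9 had a window in the RefSeq table. The CRE occurred in the windows of Dusp8 and Dusp1, in 2 of 9 members, against 1.55% of all 32851 windows. In Dusp8 it occurred at 2 places, starting 107 and 63 bases before the start site, and in Dusp1 once, at 143 bases. The CArG box occurred in Dusp5 alone among the members, at 2 adjoining places starting 82 and 72 bases before the start, against 1.47% of all windows. The CRE core (TGACG), which lies within every CRE, occurred in Dusp1, Dusp5, Dusp8 and Dusp16, against 17.8% of all windows. The E-box was found in Dusp1 and Dusp2 (6.02% of all windows), and a heat shock element (GAANNTTC) in Dusp16 (6.69%). The AP-1 site (TGANTCA, in 6.75% of all windows) and the ATF4 element (TGATGNAA, 3.45%) occurred in 0 of the 9 member windows. Both strands were searched, and a match is a match of letters only.

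Values were deposited as log2 RMA, a method that corrects background, equalises the arrays and summarises each probe set, so a difference of 1 is a doubling. RMA compresses small and large values, and levels of different probe sets cannot be compared with each other. A probe set was tested when its mean over the 4 arrays was at least 4.39, the 40th percentile of such means, which kept 14 of the 16 members and 27000 probe sets in all. The arrays of a group correlated at r = 0.991 (controls) and r = 0.989 (stimulated) across these probe sets, and arrays of different groups at 0.969 to 0.975. All 12 atrial muscle markers passed the filter, with an average level over the list of 11.07 to 11.24 in controls and 10.41 to 10.82 in stimulated cells, where Nppa rose and Gja5 and Ryr2 fell. Markers of fibroblasts (5 of 9 past the filter), endothelium (2 of 7) and smooth muscle (3 of 5) gave list averages in stimulated cells of 4.28 to 4.45, 4.55 to 4.62 and 7.70 to 7.95, against 4.35 to 4.63, 4.65 to 4.67 and 7.89 to 7.94 in controls. Of the 7 leukocyte markers 5 passed, their list averaging 4.66 and 5.09 in controls and 5.22 and 5.33 in stimulated cells. Cd68 read 4.07 and 4.70 in controls, around the filter level, and 6.34 and 6.59 in stimulated cells (adjusted p = 0.0186). It passed without control 2, but not with any of the other 3 arrays left out (adjusted p of 0.0523 to 0.0803). Csf1r read 5.79 and 7.19 in controls and 7.17 and 7.59 in stimulated cells, with groups that overlapped. Cd3e read 6.33 and 6.39 against 6.43 and 6.44, Lyz2 5.21 and 5.18 against 5.13 and 5.12. Cd79a read 4.87 and 4.89 against 4.73 and 4.89. None of these markers was called. Ptprc and Itgam lay below the filter level on all arrays. The part of leukocytes in the results was not tested. In these bulk samples fewer cells expressing a gene and less RNA per cell cannot be told apart.

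Among the 14 member probe sets tested, 1 rose, a probe set of Dusp8, and 0 fell by limma at an adjusted p under 0.05. Over all probe sets tested 3.85% were called, 2.47% higher and 1.38% lower. The number of calls over the whole array was 1039, and became 117 or 89 with stimulated 1 or 2 left out and 25 or 7 with control 1 or 2 left out. At an unadjusted p under 0.05 there were 7 of the 14, all 7 with higher values in stimulated cells, against 12% of all probe sets in that direction. Both stimulated arrays lay above both control arrays in the same number, 7 of 14, against 25.3% of all probe sets, and both lay below in 0 of 14, against 28.8%. These 7 probe sets belonged to Dusp1, Dusp2, Dusp5, Dusp8 (2 probe sets), Dusp10 and Dusp16. The median difference of the 14 was 0.35 on the log2 scale, against -0.02 over all probe sets tested. Probe sets of 1 gene measure the same transcripts and are not independent. The members were chosen with earlier results of these data known, so these shares describe the family and do not test it.

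**Figure D1:**
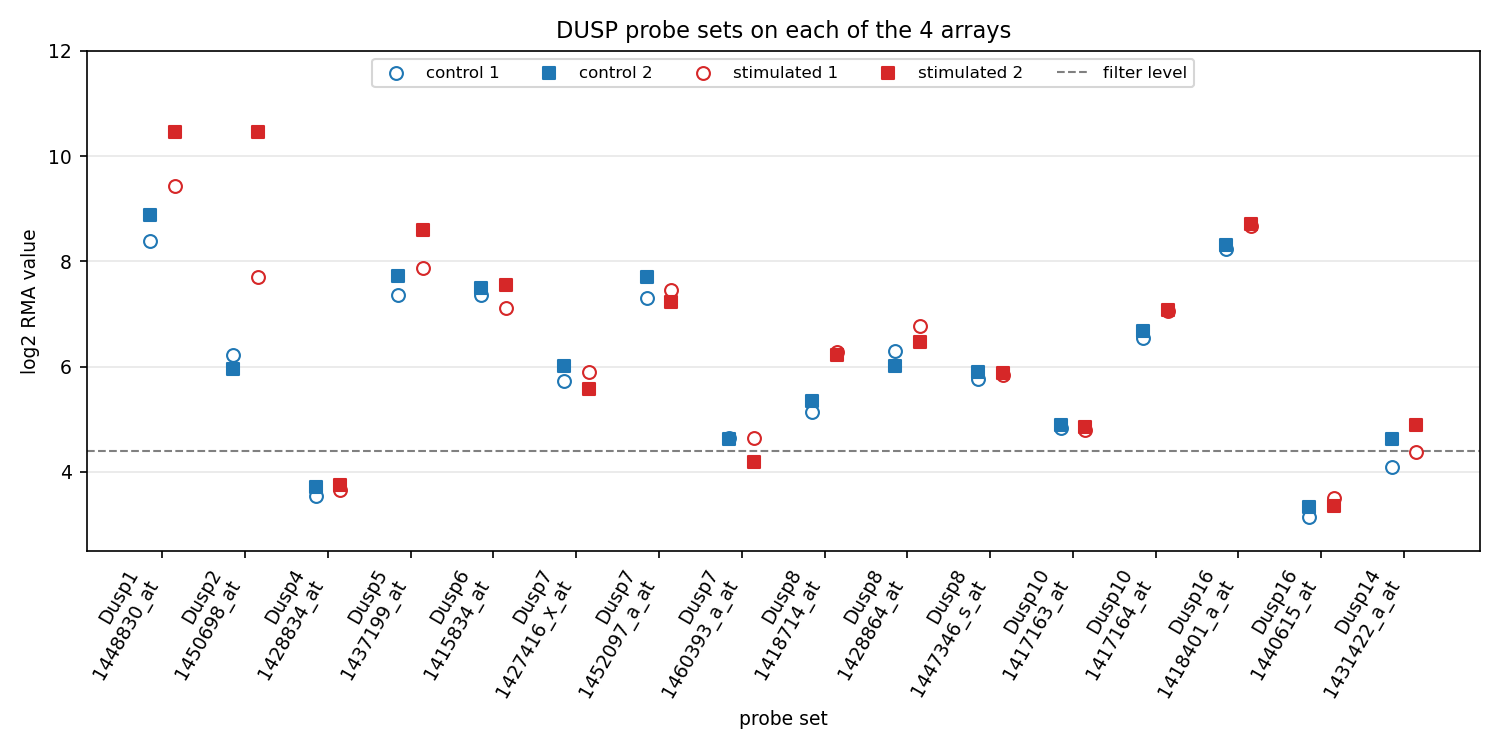
Each column is 1 of the 16 DUSP probe sets and each point its log2 RMA value on 1 array, blue for control and red for stimulated, open for replicate 1 and filled for replicate 2. The dashed line is the filter level of 4.39. Dusp2 stands at 10.46 on stimulated 2 and 7.71 on stimulated 1, while the stimulated arrays nearly coincide for the called Dusp8 probe set at 6.28 and 6.23.

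Dusp2 and Dusp1, of the nuclear, inducible phosphatases, had the 2 largest differences among the members and also the 2 largest gaps between the stimulated arrays. Dusp2, a nuclear phosphatase best known from activated immune cells, read 6.21 and 5.96 in controls and 7.71 and 10.46 in stimulated cells. Both stimulated arrays lay above both controls, but they lay 2.75 apart, and 0 of the 27000 tested probe sets had a larger gap between the stimulated arrays. The difference in Dusp2 was 3.0 ± 0.81 (SE), or 8.01-fold, with a 95% interval of 1.03 to 4.98, and it did not pass the test (adjusted p = 0.095). Without stimulated 1 it was 4.38 and passed (adjusted p = 0.0166, the lone stimulated array being taken to vary like the controls). Without stimulated 2 it was 1.62 (adjusted p = 0.055).

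Dusp1, a nuclear phosphatase of p38, JNK and ERK and an immediate early gene, read 8.39 and 8.89 in controls. In stimulated cells it read 9.43 and 10.45. The groups did not overlap, and stimulated 2 was again the higher array. The difference was 1.30 ± 0.35 (SE), or 2.46-fold (adjusted p = 0.0954). Without stimulated 1 it was 1.81 and without stimulated 2 it was 0.79, and neither passed. The gap of 1.02 between its stimulated arrays was exceeded by 219 probe sets, and its control arrays differed by 0.50 in the same order.

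Dusp5, a nuclear phosphatase specific for ERK, read 7.37 and 7.72 in controls and 7.88 and 8.60 in stimulated cells. Stimulated 1 lay just above the higher control, and most of the difference of 0.70 ± 0.26 (SE) came from stimulated 2 (adjusted p = 0.182). Without stimulated 2 the difference was 0.33, and without stimulated 1 it was 1.06. Dusp4, a further inducible nuclear phosphatase, lay below the filter level on every array, at 3.54 and 3.71 in controls and 3.67 and 3.74 in stimulated cells, and was not tested.

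Of the cytoplasmic phosphatases that prefer ERK, none passed the test, and the arrays of the groups overlapped for every probe set. Dusp6, itself a transcript that follows ERK activity in many cell types, read 7.35 and 7.50 in controls and 7.11 and 7.55 in stimulated cells. Its difference was -0.10 ± 0.18 (SE), with a 95% interval of -0.54 to 0.35 (adjusted p = 0.81). A doubling lies outside this interval, and small differences of either sign lie within it. Dusp7, the close relative of Dusp6, was measured by 3 probe sets with differences of -0.13, -0.16 and -0.21 (adjusted p of 0.542 to 0.726). The brightest of them read 7.30 and 7.71 in controls and 7.45 and 7.22 in stimulated cells, and the dimmest, at 4.64 and 4.63 against 4.65 and 4.20, lay near the filter level.

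Among the phosphatases directed at JNK and p38, 1 probe set of Dusp8 rose, and the differences of all their probe sets were smaller than those of Dusp1 and Dusp2. Dusp8, which dephosphorylates the stress kinases, rose on probe set 1418714_at, from 5.14 and 5.35 in controls to 6.28 and 6.23 in stimulated cells. This was a rise of 1.01 ± 0.14 (SE), or 2.01-fold, with a 95% interval of 0.67 to 1.34 (adjusted p = 0.0289). The gap of 0.05 between its stimulated arrays was smaller than that of 22679 of the 27000 probe sets. The call was lost when any 1 array was left out, with differences of 0.91 to 1.11 and adjusted p of 0.0744 to 0.151.

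The other probe sets of Dusp8 did not pass. Probe set 1428864_at read 6.31 and 6.0 in controls and 6.76 and 6.47 in stimulated cells, a difference of 0.46 ± 0.17 (SE) with no overlap (adjusted p = 0.179). Probe set 1447346_s_at, whose suffix marks probes shared with other transcripts, read 5.76 and 5.90 against 5.83 and 5.88, a difference of 0.03 (adjusted p = 0.936). The 3 probe sets of 1 gene thus differed in size, by 1.01, 0.46 and 0.03. When each gene was represented by its brightest probe set, which for Dusp8 was 1428864_at, 0 of the 9 tested member genes were called by limma, against 5.55% of all genes.

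Dusp10, a phosphatase of JNK and p38, read 6.54 and 6.68 in controls and 7.05 and 7.07 in stimulated cells on probe set 1417164_at. The stimulated arrays differed by 0.02 and lay above both controls, and the difference was 0.45 ± 0.13 (SE), or 1.36-fold (adjusted p = 0.11). Its second, dimmer probe set read 4.84 and 4.88 against 4.79 and 4.86, with groups that overlapped (-0.04, adjusted p = 0.905). Dusp16, a phosphatase of JNK that shuttles between nucleus and cytoplasm, read 8.24 and 8.30 in controls and 8.68 and 8.71 in stimulated cells on probe set 1418401_a_at. That difference was 0.42 ± 0.12 (SE), or 1.34-fold (adjusted p = 0.114), again with no overlap and a gap of only 0.03 between the stimulated arrays. Its second probe set lay below the filter level, at 3.15 to 3.50 over the 4 arrays. The differences of Dusp10 and Dusp16 stayed between 0.38 and 0.51 with any 1 array left out, and neither passed under any alternative run.

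Dusp14, a small atypical member without the kinase-binding domain of the others, read 4.09 and 4.63 in controls and 4.39 and 4.89 in stimulated cells. The groups overlapped around the filter level, and the difference was 0.27 ± 0.25 (SE, adjusted p = 0.566).

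**Figure D2:**
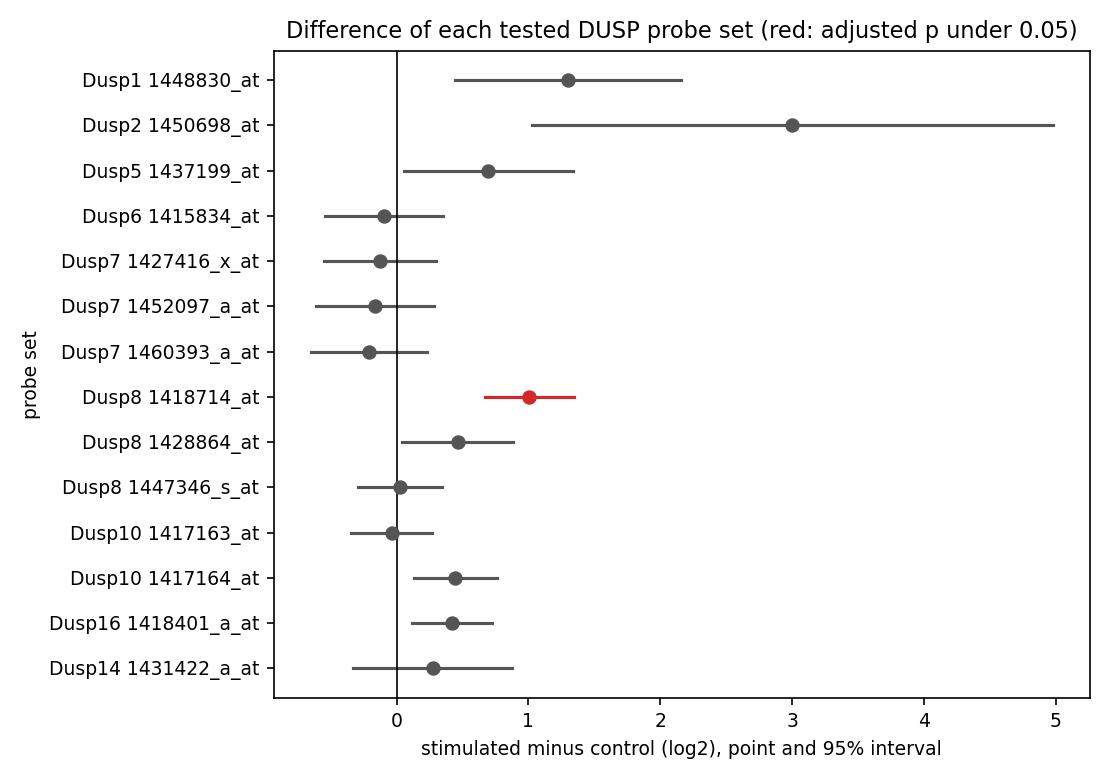
Each row is 1 of the 14 tested DUSP probe sets, with the difference of stimulated minus control on the log2 scale (point) and its 95% interval from limma, unadjusted for the number of tests (line). The called probe set of Dusp8 is red at 1.01; the interval of Dusp2 is the widest, from 1.03 to 4.98.

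The inducible members, of which none was called in the main fit, were set beside 17 transcripts that commonly follow ERK activity. This list was chosen with earlier results of these data known. Of the 16 tested, 6 rose and 0 fell, with a median of 0.78, against 3.91% of all genes higher, 1.64% lower and a median of -0.01. The median of the list was 0.50 on stimulated 1 and 0.90 on stimulated 2, each against the control mean. Dusp6 and the Sprouty and SPRED genes were not on this list, and none of them was called. Plaur, the urokinase receptor gene, rose by 2.64 ± 0.17 (SE, adjusted p = 0.00421), and the growth factor gene Hbegf by 1.55 ± 0.12 (adjusted p = 0.00868, and 0.72 on its other probe set). Their stimulated arrays read 8.38 and 8.73 for Plaur and 7.88 and 7.99 for Hbegf, stimulated 2 being the higher in both. The AP-1 gene Fosl1 rose by 2.63 ± 0.35 (adjusted p = 0.0243, and 1.02 on its other probe set) and the receptor gene Epha2 by 1.31 ± 0.20 (adjusted p = 0.0299). Maff and Etv5 also passed, at 2.88 and 0.69, with Etv5 between -0.09 and 0.50 on its other probe sets. With any 1 array left out Plaur passed, and Epha2, Maff and Etv5 did not. Fosl1 and Hbegf passed with a stimulated array left out but not with a control left out.

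Several immediate early genes had the order of arrays seen for Dusp1, Dusp2 and Dusp5. Egr1 read 8.81 on stimulated 1 and 10.42 on stimulated 2, against 7.82 and 7.79 in controls (adjusted p = 0.0831, and 0.0162 without stimulated 1). Fos read 8.95 and 10.29 against 8.58 and 8.95 (adjusted p = 0.267), and Fosl1 read 6.74 and 7.86 against 4.72 and 4.62. Myc had the opposite order, at 7.12 on stimulated 1 and 6.38 on stimulated 2. Stimulated 2 was above stimulated 1 in 10 of the 16 genes, against 6006 of the 13050 genes tested. The same held for 9 of the 14 member probe sets, against 45.3% of all probe sets. The part of the stimulated samples' handling in this gap was not tested.

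**Figure D3:**
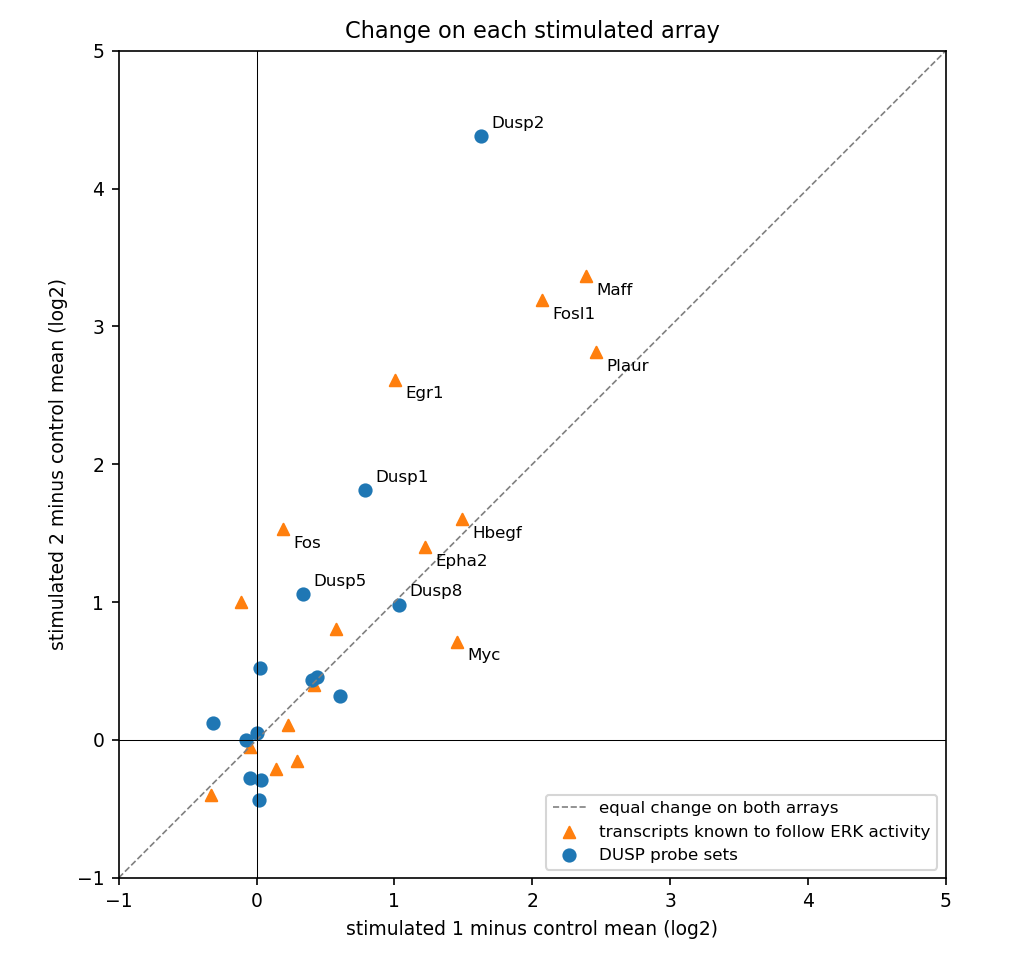
Each point is a tested DUSP probe set (blue circle) or a tested transcript known to follow ERK activity (orange triangle), with its value on stimulated 1 (horizontal axis) and stimulated 2 (vertical axis) minus the control mean, on the log2 scale. Dusp2, Dusp1, Dusp5, Egr1 and Fos lie above the dashed line of equal change, and Dusp8, at 1.03 and 0.98, lies close to it.

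None of the kinases that these phosphatases act on passed the test. Of 14 MAP kinase genes 9 were tested, and 0 passed by limma, with a median of 0.13. At an unadjusted p under 0.05 there were 3 of the 9, against 25.6% of all genes tested, the share to set beside each such count in the lists that follow. Mapk8, which encodes a JNK, differed by 0.04 ± 0.13 (SE, 95% interval -0.27 to 0.35), and by -0.65 to -0.12 on its 4 other probe sets. Mapk9, a further JNK, differed by 0.40 ± 0.15 (adjusted p = 0.161), and Mapk14, the main p38 kinase of heart, by 0.13 ± 0.13 (adjusted p = 0.622); its 5 other probe sets differed by -0.32 to -0.05. Mapk6, an atypical member, had the smallest p (0.70 ± 0.15, adjusted p = 0.0551), with -0.22 and 0.35 on its other probe sets. It passed with the stricter filter (adjusted p = 0.043) and with the variance trend (adjusted p = 0.0429).

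One level up, Map2k3, which activates p38, rose from 8.94 and 9.09 to 9.91 and 10.22, by 1.05 ± 0.15 (SE, adjusted p = 0.0293), and its other probe set differed by 1.06. It was the only gene called among the 5 MAP kinase kinases tested, whose median was -0.24, but 0.02 without stimulated 1 and -0.41 without stimulated 2. Of 18 MAP kinase kinase kinases tested, Map3k21 fell by 0.86 ± 0.14 (adjusted p = 0.0339; -0.31 on its other probe set) and 0 rose, with a median of -0.09. Among the kinases activated by MAP kinases, 2 of 8 rose and 0 fell. Mknk1, which phosphorylates the cap-binding translation factor, rose by 0.82 ± 0.16 (adjusted p = 0.0428) but differed by 0.12 to 0.66 on its other probe sets, and Mapkapk5 rose by 0.62 ± 0.12 (adjusted p = 0.0472).

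Other brakes on the pathway did not pass the test. Of 16 other dual-specificity phosphatase and related genes 11 were tested, with a median of 0.21, and 0 were called by limma (4 at an unadjusted p under 0.05). Dusp3, an atypical phosphatase of ERK and JNK, read 8.03 and 7.34 in controls and 9.23 and 8.63 in stimulated cells, a difference of 1.24 ± 0.29 (SE, adjusted p = 0.0645). Its other probe sets differed by 0.26 and 0.78, and here stimulated 1 was the higher array. Dusp3 passed with the stricter filter and with the variance trend (adjusted p of 0.0494 and 0.0493). The Sprouty and SPRED inhibitors of RAS signalling, which many cells induce with ERK activity, had 4 tested genes and 0 called by limma (0 at an unadjusted p under 0.05). Their median was -0.10, and Spry1 had the smallest p (0.20 ± 0.14). The 8 tyrosine and serine phosphatases tested also gave 0 calls (0 at an unadjusted p under 0.05), with Ppm1d at -0.27 ± 0.12.

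RAS genes and their adaptors (13 tested, median 0.07) and scaffolds (10 tested, median 0.07) gave 0 calls by limma, with 5 and 1 genes at an unadjusted p under 0.05. The median of the RAS list was -0.02 without stimulated 1. The smallest p belonged to the RAS activator Sos2 (0.67 ± 0.15, adjusted p = 0.0584) and the JNK scaffold Spag9 (0.53 ± 0.13, adjusted p = 0.0672). A further list held transcription factors phosphorylated by MAP kinases or by kinases that these activate, of which 12 were tested. Ddit3 (2.62 ± 0.13, adjusted p = 0.0022) and Jun (2.25 ± 0.34, adjusted p = 0.0298) rose and 0 fell. Their other probe sets differed by 1.30 and 0.98. The median of this list was 0.23, and -0.02 to 0.29 with 1 array left out, below 0 without control 2. Over the 114 tested genes of all these lists, 11 rose and 1 fell, and with 1 array left out 2 to 6 were called, 2 without control 1 or control 2. Ddit3 passed with any 1 array left out, Jun passed with a stimulated array left out but not with a control left out, and Map2k3, Map3k21, Mknk1 and Mapkapk5 passed in none of these fits.

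**Figure D4:**
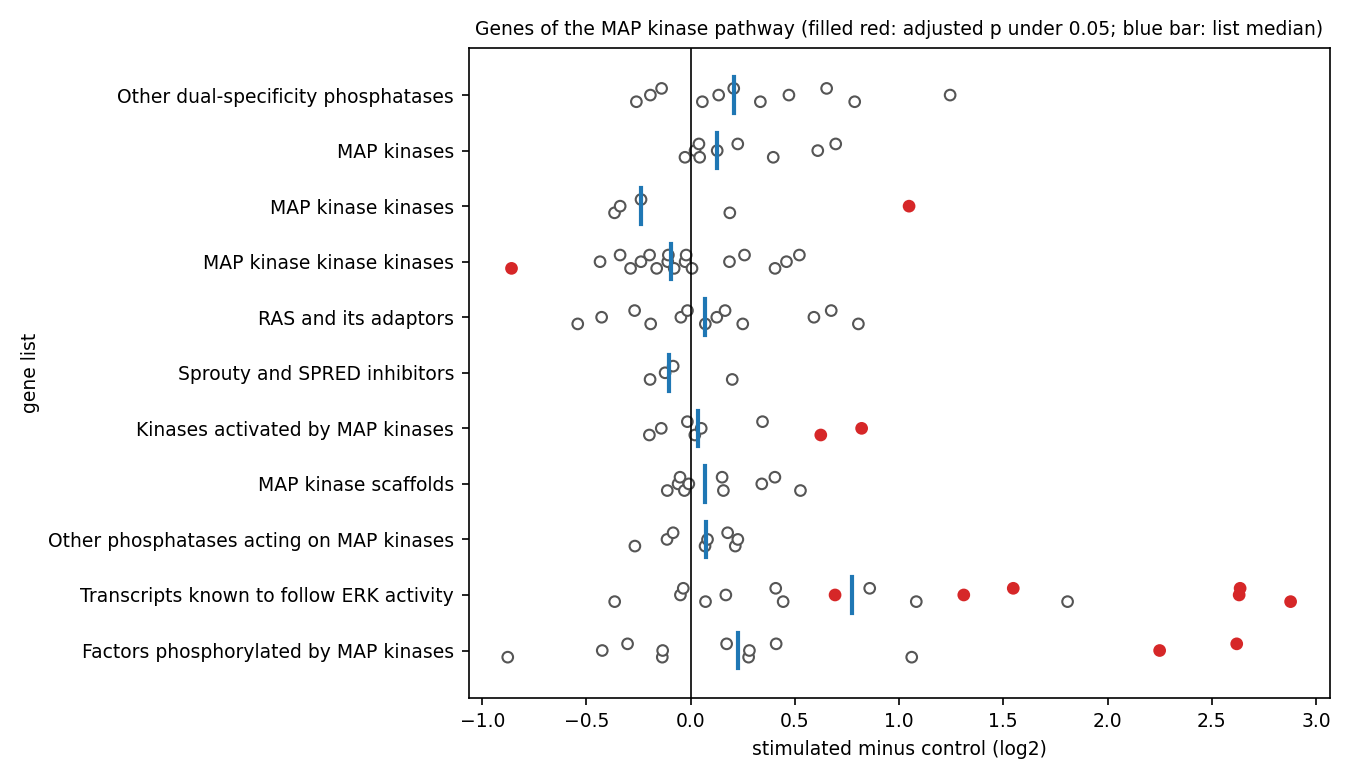
Each point is a tested gene of a MAP kinase pathway list, placed by its difference of stimulated minus control on the log2 scale; filled red points passed an adjusted p of 0.05 and blue bars are list medians. The transcripts known to follow ERK activity, a list chosen with earlier results of these data known, hold the most calls (6 of 16, median 0.78). The Sprouty and SPRED inhibitors hold 0, as do the 9 tested MAP kinases.

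The genes whose pattern lay nearest to that of the called Dusp8 probe set over the 4 arrays, by Euclidean distance after the control mean was subtracted, were Ypel5, Alkbh1, Fbxl16, Reep6 and Wdr43. Their distances ran from 0.04 to 0.10 on the log2 scale. Their rises ran from 0.95 to 1.01, near that of Dusp8 because the genes were picked by this distance.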

How the data were processed

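Total RNA of 4 HL-1 samples was measured on Affymetrix arrays. The authors deposited log2 values made with RMA, per the submitters' processing notes. Settings and version of RMA are not given in the sources used here. The number of arrays, not a depth, limits precision. Of 45101 probe sets 64 were controls. Of the rest, 34945 had 1 symbol in the platform annotation, 932 several and 9160 none. The 10 member genes' identifiers were all found in RefSeq's GRCm38.p6 table, used for names and promoter windows.

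Probe sets with a mean at or above the 40th percentile were fitted with limma 3.58.1 (lmFit, eBayes, two-sided) in R 4.3.3, 2 stimulated against 2 control arrays, with Benjamini-Hochberg adjustment over 27000 probe sets and a threshold of 0.05. Pathway lists used 1 probe set per gene, the brightest, over 13050 genes. With 2 against 2 arrays the smallest two-sided p of an exact permutation test is 0.333. The fit was tested on simulated 2 against 2 arrays with 27000 probe sets, 50 for each size of true change. It called 0% of changes of 0.5 on the log2 scale, 14% of 1, 86% of 2 and 98% of 3. A value that did not pass can therefore still hold a true change of the smaller sizes. Fewer probe sets changed in the simulation than were called in the data, so these shares are rough. The members and lists were chosen with earlier results of these data known. Named were all members, up to 4 called genes of each list (or the smallest p), a few MAP kinases and the 5 nearest patterns. Maff, Etv5, Egr1, Fos, Myc, Ier3, Cd68 and the other leukocyte markers were named after their values were seen. Alternatives were other filters, median centring, a variance trend, each array left out, a replicate block, gene-level values and the mean of a gene's probe sets.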

Additional observations from a re-analysis of the deposited data

How the results depend on the processing

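The single DUSP call, on a Dusp8 probe set, did not hold under every alternative. With the 60th percentile filter, under which that probe set was not tested, and in the gene-level fit the number of members called was 0, and with the replicate block it was 2, Dusp8 and Dusp1 (adjusted p = 0.0273). With 1 array left out it was 0 to 1, the 1 being Dusp2 without stimulated 1. Over all probe sets the 1039 calls became 1566 with the variance trend, 2041 with the replicate block and 7 to 117 with 1 array left out, the 7 without control 2. The pathway genes called became 2 to 6 with 1 array left out, 2 without either control. Among uncalled values the sign turned with 1 array left out for Dusp6 (-0.32 to 0.12), the 3 probe sets of Dusp7 (-0.29 to 0.033, -0.37 to 0.042, -0.44 to 0.015), Dusp8 1447346_s_at (-0.040 to 0.10) and Mapk8 (-0.043 to 0.12). With the mean of all probe sets Mapk8 was at -0.23 and Mapk14 at -0.17. With the block Dusp3 (adjusted p = 0.0151), Mapk6 (0.049) and Sos2 (0.038) also passed, and Sos2 passed with the stricter filter (0.0458) and when probe sets were averaged (0.0491). Mapkapk5 and Etv5 did not pass without a filter (adjusted p of 0.0512 and 0.0528), nor did Mknk1 and Etv5 with the mean of all probe sets. The replicate block rests on a number that a protocol text gives for 1 control and accession order for the other. The differences between replicates correlated at 0.31 between the groups across probe sets, and 2 pairs do not show pairing. With 2 arrays per group the signal near the filter level limits what can be said of Dusp4, Dusp14 and the dimmest probe sets of Dusp7 and Dusp16.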
